A study of Homo sapiens with 6 samples.

Results

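Genes that mark or drive the mesenchymal state of neuroblastoma, 10 in all, were read in 6 RNA libraries of human neuroblastoma lines. They were taken by symbol from the count table, which held 1 row for each of the 10 among 25370 rows: the intermediate filament VIM, the transcription factors ZEB1, ZEB2, SNAI2, TWIST1 and PRRX1, the surface receptors CD44 and AXL, and the co-activators YAP1 and WWTR1. BE2C and Kelly are neuroblastoma cell lines with amplified MYCN, so that all groups shared this alteration. The LMO1 group was BE2C with forced expression of LMO1, a LIM-only transcriptional co-regulator (2 libraries), and the vector group was BE2C with the control vector (2 libraries). The parental group was BE2C with no listed modification, and Kelly was likewise unmodified (1 library each). The sources used here do not say which promoter the vector carried or whether the modified cells were pools or single clones. The study asked how LMO1 acts together with MYCN.

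Neuroblastoma cells are found in an adrenergic state, governed by factors such as HAND2 and GATA3, and in a mesenchymal state that resembles migratory neural crest. In the mesenchymal state, PRRX1 and factors of epithelial-mesenchymal transition are high, cells carry more vimentin and CD44, and YAP and TAZ, the effectors of the Hippo pathway, are active. ZEB and SNAI proteins repress genes through E-box sequences, TWIST1 binds other E-boxes as a dimer with E proteins, and YAP and TAZ act through TEAD factors.

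Depth ran from 18737591 to 59512958 counts per library, and a floor of 3 counts equalled 0.0503 to 0.157 CPM (counts scaled to a common library size, with TMM factors over the 6 libraries, the unit of all levels here). LMO1 checked the labels, at 6.55 and 5.85 CPM in the LMO1 libraries, 1.05 and 0.926 CPM in the vector libraries, 1.93 CPM in parental and 94.1 CPM in Kelly. All 12 adrenergic markers were above 3 counts in every library, with summed levels from 1523 to 3554 CPM, and the 4 blood markers summed to at most 0.604 CPM, with CD3E and HBB at 0 counts throughout. Replication-dependent histone genes took 1.01% to 1.23% of counts in the 4 modified libraries, 0.0423% in parental and 0.0138% in Kelly. The parental and Kelly libraries thus differed in content from the modified ones, and in a comparison across them the library set and the cells cannot be told apart.

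The promoter sequences of the 3 members called with LMO1 are shown because these members moved in opposite directions. Each is the 250 bases before the start site, read in the direction of the gene, from RefSeq on GRCh38.p14. CD44 lay at chr11:35138921-35139170 (plus strand), AXL at chr19:41218973-41219222 (plus strand) and ZEB2 at chr2:144520120-144520369 (minus strand). Capitals mark E-boxes (CANNTG, either strand).
CD44: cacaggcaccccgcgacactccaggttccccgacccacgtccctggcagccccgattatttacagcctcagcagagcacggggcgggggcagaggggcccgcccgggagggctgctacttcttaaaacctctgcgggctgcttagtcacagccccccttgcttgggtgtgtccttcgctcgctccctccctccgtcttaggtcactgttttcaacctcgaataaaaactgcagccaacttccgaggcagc
AXL: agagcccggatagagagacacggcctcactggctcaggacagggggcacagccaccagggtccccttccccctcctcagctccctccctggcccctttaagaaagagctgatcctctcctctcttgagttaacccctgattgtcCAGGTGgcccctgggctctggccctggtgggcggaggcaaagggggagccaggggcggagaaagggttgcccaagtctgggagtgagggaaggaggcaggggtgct
ZEB2: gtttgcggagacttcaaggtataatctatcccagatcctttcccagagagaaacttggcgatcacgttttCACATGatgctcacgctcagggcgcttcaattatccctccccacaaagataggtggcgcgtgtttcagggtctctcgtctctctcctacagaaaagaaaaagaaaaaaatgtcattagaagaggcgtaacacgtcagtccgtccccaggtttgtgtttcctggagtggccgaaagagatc
The AXL window held 1 E-box, starting 106 bases before the start, and it was of the CACCTG form read by ZEB and SNAI proteins, here on the other strand. The ZEB2 window held 1 E-box of another form, 180 bases before the start, and the CD44 window held none. The TEAD core GGAATG and the AP-1 sequence TGANTCA, searched on both strands, were in none of these 3 windows. Among 35116 windows of this length, 61.8% held CANNTG, which includes every CACCTG, 17.5% held CACCTG, 11.9% held GGAATG and 6.57% held TGANTCA. A second AXL start had a window with 1 GGAATG and 2 E-boxes. Of the members, 8 had windows in the RefSeq table, 16 in all, of which 3 held CACCTG (2 of ZEB1 and 1 of AXL), 2 held GGAATG (YAP1 and AXL) and 0 held TGANTCA.

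The members differed widely in level. Divided by merged exon length (GENCODE 29, an approximation because the annotation used for counting was not given), VIM was far above the others in BE2C, at 337 ± 3.92 CPM per kilobase in the vector libraries (SD, n = 2). TWIST1 followed at 30.5 ± 1.19 and ZEB1 at 22.9 ± 0.787 CPM per kilobase. AXL at 4.13 ± 0.371 and SNAI2 at 4.09 ± 0.300 CPM per kilobase overlapped in range, so that their order was not resolved. ZEB2 came next at 2.84 ± 0.00119, then CD44 at 0.612 ± 0.0482 CPM per kilobase. WWTR1 at 0.106 ± 0.0298 and YAP1 at 0.0898 ± 0.0348 CPM per kilobase overlapped each other, and PRRX1 was lowest. In Kelly, TWIST1 stood first at 47.8 CPM per kilobase and VIM second at 45.6, and AXL and WWTR1 were last, at 0.0343 and 0.0188 CPM per kilobase.

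**Figure D1:**
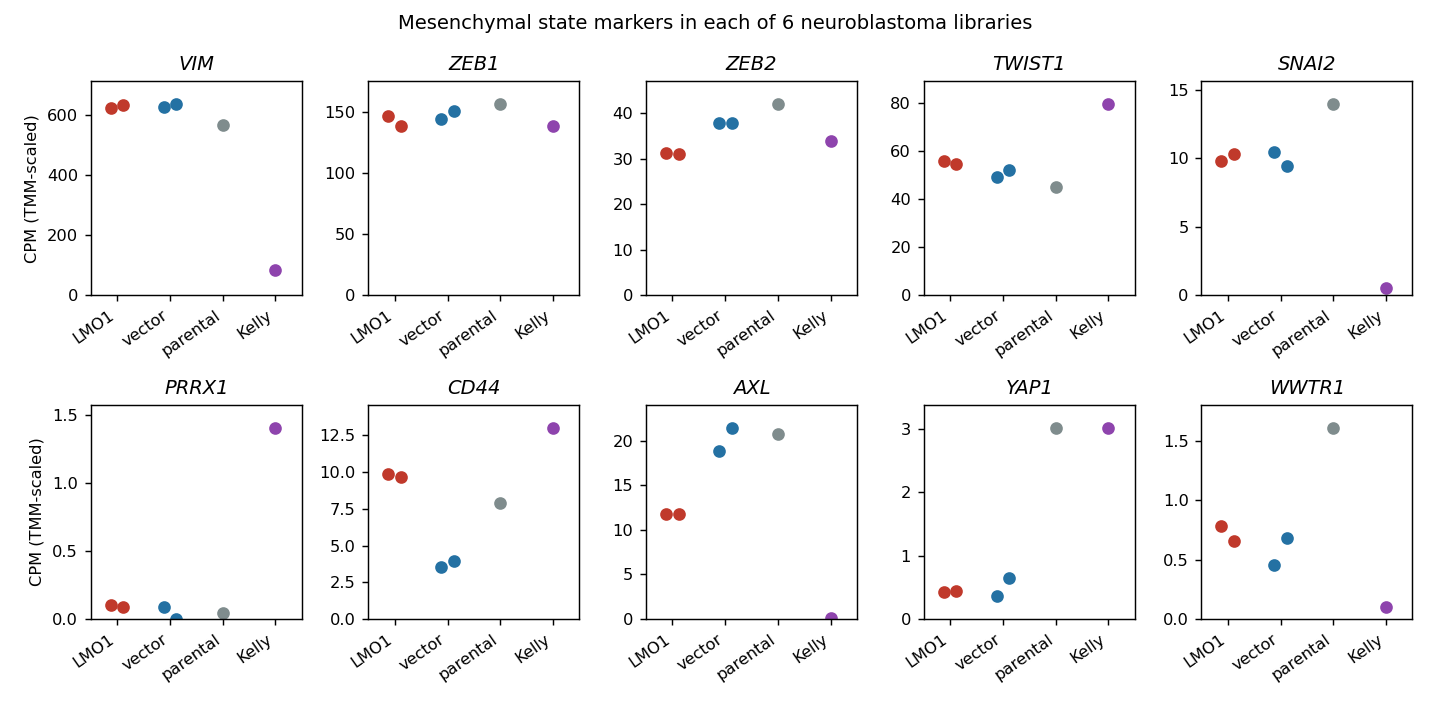
Level of each of the 10 members in every library, in TMM-scaled CPM on linear axes that start at 0. Each point is 1 library, with 2 for LMO1, 2 for vector and 1 each for parental BE2C and Kelly. CD44 is higher and AXL and ZEB2 are lower in both LMO1 libraries than in both vector libraries, and VIM, SNAI2, WWTR1 and AXL are lowest in Kelly.

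With forced LMO1, CD44 rose and AXL and ZEB2 fell, while VIM, ZEB1, TWIST1, SNAI2 and WWTR1 did not pass the test. Of the 10 members, 8 passed the filter on low counts and were tested, and YAP1 and PRRX1 were not. Among the 8, 1 was called higher and 2 lower (edgeR quasi-likelihood test, adjusted p below 0.05), against 15.9% of all 15480 genes tested called higher and 15.1% called lower, or 31.0% in either direction. The share of members called was thus near the background. The median log2 fold change of the 8 was 0.02, beside 0.000832 over all genes tested.

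CD44, the hyaluronan receptor, was at 9.85 and 9.68 CPM in the LMO1 libraries, 3.53 and 3.94 CPM in the vector libraries, 7.89 CPM in parental and 13.0 CPM in Kelly. Both LMO1 libraries were above both vector libraries without overlap, and the parental library lay nearer to the LMO1 libraries. The fold change against vector was 2.62 (log2 1.39, SE 0.177, edgeR adjusted p = 1.35e-08). Against the parental library the LMO1 level was 1.24-fold (95% counting interval 1.07 to 1.43). The counts are per gene, so the splice forms of CD44 were not told apart.

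AXL, a receptor tyrosine kinase of the TAM family, was at 11.8 and 11.8 CPM in the LMO1 libraries, 18.9 and 21.5 CPM in the vector libraries, 20.7 CPM in parental and 0.168 CPM in Kelly. Here the LMO1 libraries were below both the vector and the parental libraries. Set against vector, AXL was 1.71-fold lower (log2 -0.77, SE 0.116, edgeR adjusted p = 6.06e-07). Against LMO1, the parental level was 1.76-fold (95% counting interval 1.58 to 1.96), and parental over vector was 1.02-fold, with an interval that included 1.

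ZEB2, an E-box repressor with zinc fingers at both ends, was at 31.4 and 31.1 CPM in the LMO1 libraries, 37.9 and 37.9 CPM in the vector libraries, 42.1 CPM in parental and 33.9 CPM in Kelly. The LMO1 libraries were below the other BE2C libraries, by a small margin. This was 1.21-fold lower (log2 -0.27, SE 0.0782), with an edgeR adjusted p of 0.00576. ZEB1, its paralogue, was at 147 and 138 CPM with LMO1, 144 and 151 CPM with vector, 156 CPM in parental and 139 CPM in Kelly. The 6 values were close together and the LMO1 and vector groups overlapped. Its log2 fold change was -0.04 (95% interval -0.13 to 0.04, edgeR adjusted p = 0.476). Whether the paralogues differed in response was not tested.

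TWIST1, a basic helix-loop-helix factor of neural crest and mesoderm, was at 55.9 and 54.6 CPM with LMO1, 49.4 and 52.2 CPM with vector, 45.0 CPM in parental and 79.7 CPM in Kelly. The LMO1 libraries lay above the other BE2C libraries without overlap, but the difference was not called. Its log2 fold change was 0.13 (95% interval -0.01 to 0.26, edgeR adjusted p = 0.145). SNAI2, also called Slug, was at 9.85 and 10.3 CPM with LMO1, 10.4 and 9.42 CPM with vector, 14.0 CPM in parental and 0.537 CPM in Kelly. The LMO1 and vector groups overlapped. The log2 fold change was 0.03 (95% interval -0.26 to 0.32, edgeR adjusted p = 0.901).

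VIM was at 623 and 632 CPM with LMO1, 625 and 635 CPM with vector, 566 CPM in parental and 85.1 CPM in Kelly. The modified libraries could not be told apart, and the interval was narrow. The log2 fold change was 0.000521 (95% interval -0.05 to 0.05, edgeR adjusted p = 0.991), which spans 0.964-fold to 1.04-fold.

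The Hippo effectors were scarce in the modified BE2C libraries, and less so in parental, with YAP1 at 3.01 CPM and WWTR1 at 1.61 CPM. WWTR1, which encodes TAZ, had 15 and 15 counts with LMO1 and 10 and 17 with vector, or 0.785 and 0.660 CPM against 0.458 and 0.684 CPM. The groups overlapped, and the interval of the log2 fold change of 0.32 ran from -0.72 to 1.37 (edgeR adjusted p = 0.691). At these low counts the interval was wide, and it included a 2-fold rise but not a 2-fold fall. YAP1 had 8 and 10 counts with LMO1 and 8 and 16 with vector, and fell under the filter. With no filter on low counts, YAP1 had a log2 fold change of -0.24 (edgeR adjusted p = 0.870, and 0.679 to 0.896 over all the alternatives that kept it). PRRX1, a homeobox factor that drives the mesenchymal state, had at most 2 counts in each of the 5 BE2C libraries, which is under the floor of 3 counts in every one.

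**Figure D2:**
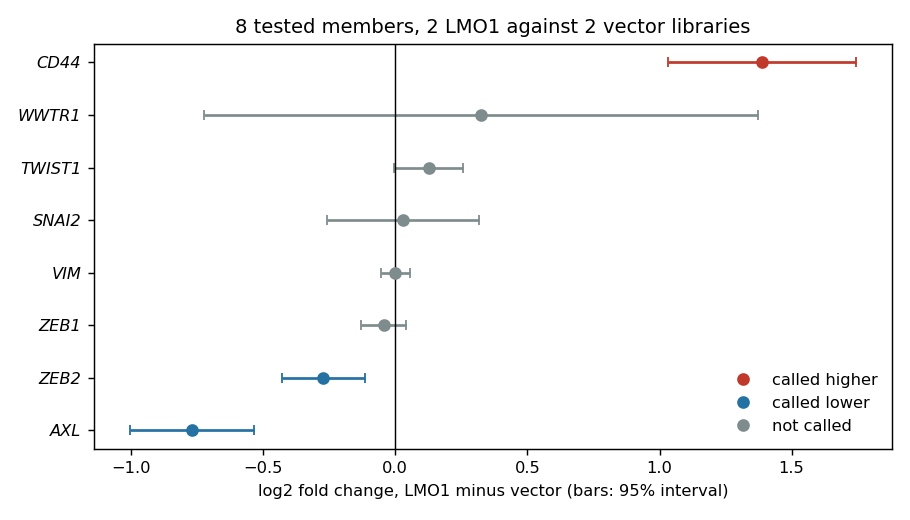
Log2 fold change of the 8 tested members, LMO1 minus vector, with 95% intervals from the edgeR standard errors. CD44 is to the right of 0 (1.39), ZEB2 (-0.27) and AXL (-0.77) are to the left, and the other 5 intervals include 0.

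Kelly was set against parental BE2C, which asks how the markers stand in a second line that expresses more LMO1. Each line had a single library, so these ratios carry no p-value and no check by replicates. Intervals here are exact, at 95%, and cover counting error only. Of the members, 7 had at least 5 CPM on either side, and on the log2(CPM + 1) scale 0 of these exceeded parental by 2-fold or more and 3 were below it by that much, against 15.3% higher and 13.4% lower among 12387 genes. Their median log2 ratio was -0.30, beside -0.03 for all these genes.

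The 3 were AXL, SNAI2 and VIM. AXL had 10 counts in Kelly and 991 in parental, a ratio of CPM of 124 in favour of parental (66.9 to 259). SNAI2 had 32 counts against 668, a ratio of 26.0 (18.3 to 38.4). VIM was 6.65-fold higher in parental (6.45 to 6.85). WWTR1, below the 5 CPM limit, followed the same direction, with 6 counts against 77 and a ratio of 16.0 (7.03 to 45.0). The 5 BE2C libraries all lay above Kelly for these 4 genes.

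Other members were higher in Kelly or close to parental. TWIST1 was 1.77-fold higher in Kelly than in parental (1.68 to 1.86), and CD44 was 1.65-fold higher (1.46 to 1.87). PRRX1 had 84 counts in Kelly, or 1.41 CPM, and 2 in parental, a ratio of 33.7 (9.04 to 283). ZEB1 and ZEB2 had ratios of Kelly to parental of 0.887 (0.860 to 0.915) and 0.806 (0.757 to 0.858). YAP1 differed little between the lines, with a ratio of 0.997 (0.796 to 1.25). The 2 lines thus did not differ in 1 direction over the members: the 5 transcription factors split, with TWIST1 and PRRX1 higher and SNAI2 far lower in Kelly.

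**Figure D3:**
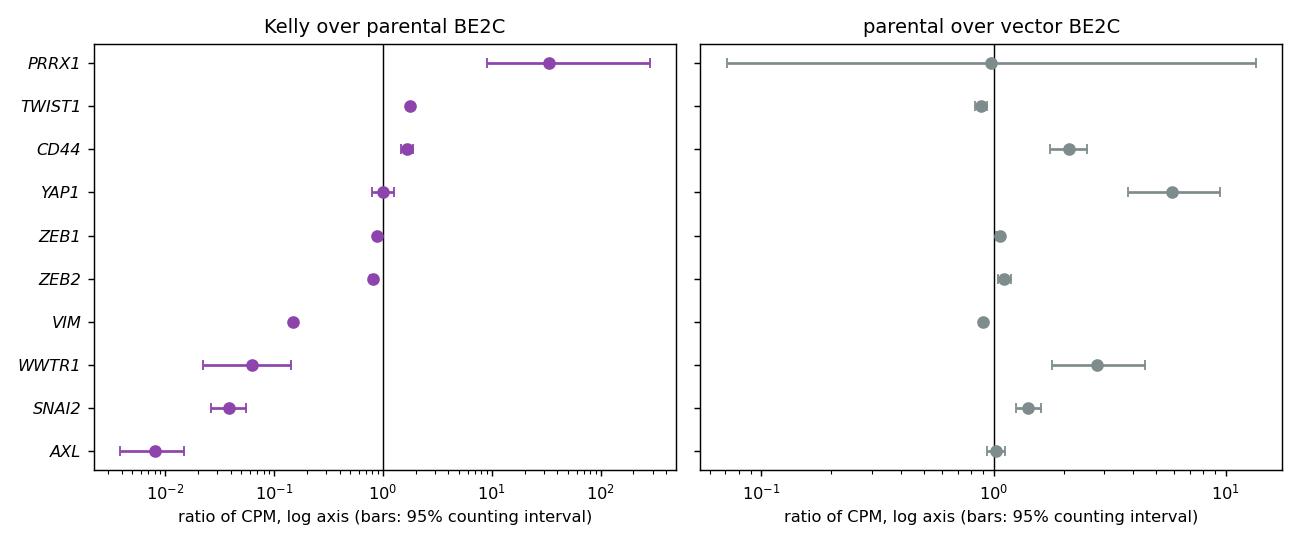
Ratios of CPM for each member on log axes, Kelly over parental BE2C on the left and parental over vector BE2C on the right, with exact 95% counting intervals. On the left AXL, SNAI2, WWTR1 and VIM lie far below 1 and PRRX1 above it. On the right YAP1 (5.86), WWTR1 (2.79) and CD44 (2.10) lie above 1.

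Parental BE2C and the vector libraries are the same line in separate library sets. Of the 7 members with at least 5 CPM on either side, 0 were 2-fold higher and 0 lower in parental on the log2(CPM + 1) scale, against 8.79% and 2.58% of 11727 genes. CD44 came nearest, with a ratio of 2.10 (1.75 to 2.53), and SNAI2 had 1.41 (1.25 to 1.59). Below that limit, YAP1 had 144 counts in parental against 24 in the 2 vector libraries together, a ratio of 5.86 (3.79 to 9.45), and WWTR1 had 77 against 27, a ratio of 2.79 (1.78 to 4.49). The YAP1 level that parental shared with Kelly was therefore not found in the vector libraries, and the library set cannot be told apart from the vector treatment. AXL (1.02), ZEB1 (1.06), ZEB2 (1.11), TWIST1 (0.884) and VIM (0.897) had ratios near 1.

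Genes that work with the members were read from 11 lists. Counts of called genes are edgeR calls for LMO1 against vector, to be read against the 31.0% of all genes called. Other factors of epithelial-mesenchymal transition were higher in 1 and lower in 2 of 9 tested (median log2 fold change -0.15). The E proteins that pair with TWIST1 moved both ways, with TCF4 up by 0.21 (SE 0.0318, edgeR adjusted p = 1.01e-06) and TCF12 at a log2 fold change of -0.15 (SE 0.0334, edgeR adjusted p = 0.000276), while TCF3 had 0.07 (edgeR adjusted p = 0.265). FOXC1, a forkhead factor, had -0.23, a call that was lost without LMO1 replicate 1 or vector replicate 1 (edgeR adjusted p = 0.175 and 0.227, and 0.0203 to 0.227 over all alternatives). SNAI1 was not called, with a mean of 5.07 ± 0.428 CPM in the LMO1 group and 5.76 ± 0.502 CPM in the vector group (edgeR adjusted p = 0.530), and TWIST2 had no count in any library. In parental, TCF4 was at 341 CPM, beside means of 334 CPM with LMO1 and 291 CPM with vector. TCF12 was at 254 CPM in parental, beside 271.5 with LMO1 and 304 CPM with vector. FOXC1 was at 24.8 CPM in parental, beside 27.8 with LMO1 and 32.9 CPM with vector. All of these parental levels were nearer to LMO1 than to vector. In Kelly, PRRX2, the paralogue of PRRX1, was at 9.89 CPM against 0.251 CPM in parental.

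Other transcription factors linked to the mesenchymal neuroblastoma state were higher in 8 and lower in 2 of 25 tested, with a median log2 fold change of 0.08. Without LMO1 replicate 1, 4 were higher, and without vector replicate 1 or 2, 5 were, while DESeq2 called 3 higher. IFI16, a nuclear DNA sensor, rose by 0.90 against vector (SE 0.0567, edgeR adjusted p = 5.32e-18), from 52.6 ± 3.06 to 98.0 ± 1.05 CPM. Its parental level of 126 CPM was above both groups, so IFI16 with LMO1 was higher than with vector but lower than in parental. NR3C1, the glucocorticoid receptor, rose by 0.47 (SE 0.103). ID1, an inhibitor of E proteins, fell by 0.43 (SE 0.0639). BHLHE41 had 31 and 68 counts with LMO1 (1.62 and 2.99 CPM) and 0 and 12 with vector. Parental BE2C had more than either group, with 232 counts or 4.86 CPM. The ratio of parental to vector was 18.9 (counting interval 10.6 to 37.1), across separate library sets. BHLHE41 was thus higher with LMO1 than with vector but lower than in parental, with a ratio of LMO1 to parental of 0.488 (0.381 to 0.620). Its log2 fold change of 3.17 became 2.27 when vector replicate 1 was left out and 8.63 when vector replicate 2 was, and it was not called by DESeq2 (adjusted p = 0.306, against 5.59e-10 to 0.306 over all alternatives). In Kelly, IFI16 was at 0.118 CPM against 126 CPM in parental, and TBX18 at 1.48 against 39.2 CPM, while SOX9 was at 21.7 against 2.99 CPM. Of 21 such genes with at least 5 CPM, 4 were 2-fold higher and 5 lower in Kelly, against 15.3% higher and 13.4% lower among 12387 genes.

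Hippo pathway genes upstream of and beside YAP1 and WWTR1 moved both ways, with 4 higher and 5 lower of 20 tested (median -0.00159). LATS2, a core kinase of the pathway, had at most 12 counts in any library and was not tested, while its paralogue LATS1 was at 58.7 to 132 CPM. AMOTL1, an angiomotin that binds YAP, rose by 0.32 (SE 0.0324, edgeR adjusted p = 1.86e-11). FAT4, an atypical cadherin, fell by 0.88 (SE 0.0928), from 31.9 ± 0.289 to 17.3 ± 0.0239 CPM. TEAD1, the most abundant TEAD factor in these libraries at 174 ± 3.36 against 207 ± 4.68 CPM, fell by 0.25 (SE 0.0375). TAOK2 had -0.26, and without LMO1 replicate 2 its call was lost (edgeR adjusted p = 0.0800, against 5.03e-05 to 0.0800 over all alternatives). These counts moved with single libraries: 1 was higher without vector replicate 2, 2 without LMO1 replicate 1, and 2 were lower without LMO1 replicate 2. In Kelly, DCHS1, a partner of FAT4, was at 115 against 5.25 CPM in parental, TEAD4 at 20.1 against 1.13 CPM, and TEAD2 at 6.58 against 1.70 CPM.

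Target genes of YAP and TAZ were higher in 4 and lower in 5 of 18 tested, with a median of 0.04, and 2 were lower without LMO1 replicate 2. IGFBP3, an IGF-binding protein, fell by 1.64 (SE 0.0769, edgeR adjusted p = 1.22e-22), from a mean of 66.4 to 21.2 CPM, and MYOF fell by 2.32 (SE 0.328). NT5E, the ecto-nucleotidase CD73, rose by 1.11 (SE 0.0803), and CCDC80 by 1.35 (SE 0.143). CTGF and CYR61, the best known targets, were at or below 0.258 CPM in both groups and were not tested. In Kelly, NT5E (0.839 against 53.0 CPM), IGFBP3 (4.16 against 124 CPM) were far below parental, and CRIM1 was 25.1-fold lower.

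GAS6, the ligand of AXL, rose by 0.45 against vector (SE 0.105, edgeR adjusted p = 0.000742), from 15.9 ± 0.331 to 21.6 ± 0.109 CPM. Against vector this was opposite in direction to its receptor. Parental BE2C was also at 21.6 CPM of GAS6, so no rise was seen against parental, whereas AXL was lower with LMO1 than in parental too. PROS1, TYRO3 and MERTK, the other 3 genes of that list, were not called. In Kelly, where AXL had 10 counts, GAS6 was at 46.1 CPM against 21.6 CPM in parental, TYRO3 at 38.0 against 62.5 CPM, and PROS1 had a ratio of 0.927 (0.870 to 0.988).

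Around CD44, genes of hyaluronan metabolism and cytoskeletal linkage were higher in 0 and lower in 3 of 10 tested (edgeR, with a median of -0.03), although CD44 itself rose. HYAL1 (log2 0.76) and HMMR (log2 0.18) were higher at an unadjusted p below 0.05 only (edgeR adjusted p = 0.0572 and 0.0600), and 1 gene of the list was called higher under 5 of the alternatives, among them the fit without LMO1 replicate 2. HAS2, a hyaluronan synthase, fell by 1.52 (SE 0.255, edgeR adjusted p = 5.22e-06), from 5.02 ± 0.874 to 1.75 ± 0.113 CPM. EZR, which ties CD44 to actin, fell by 0.31 (SE 0.0416). RDX, a relative of EZR, had -0.16, not called without LMO1 replicate 2 (edgeR adjusted p = 0.0506, against 0.00209 to 0.0506 over all alternatives). MSN, the third member of that family, had 0 to 10 counts in the modified libraries, 1.26 CPM in parental and 114 CPM in Kelly. LAYN was at 20.0 CPM in Kelly against 7.05 CPM in parental, and NF2 at 53.0 against 88.2 CPM.

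Among co-repressors that work with ZEB and SNAI proteins 1 was higher and 3 lower of 11 tested (median -0.04). RCOR1 fell by 0.26 (SE 0.0507, edgeR adjusted p = 4.88e-05). SIN3A, SMARCA4 and EHMT2 were called at 0.23, -0.12 and -0.18. Leaving out LMO1 replicate 2 removed all 3 calls (edgeR adjusted p = 0.0837, 0.0884 and 0.166), with ranges over all alternatives of 0.00256 to 0.0837, 0.00253 to 0.0884 and 0.00334 to 0.240. Without vector replicate 1 EHMT2 was not called, and without vector replicate 2 SIN3A and SMARCA4 were not (edgeR adjusted p = 0.240, 0.0611 and 0.0627). In Kelly, RCOR1 was at 31.4 CPM against 150 CPM in parental, KDM1A at 364 against 156 CPM and EZH2 at 181 against 106 CPM. Epithelial genes that these factors repress were scarce: 11 of 23 were not tested, and CDH1 had at most 4 counts in any library. KRT19 was called higher (0.64, from 4.24 ± 0.419 to 6.54 ± 0.214 CPM), but not without LMO1 replicate 2 or vector replicate 2 (edgeR adjusted p = 0.0867 and 0.0995, against 0.00386 to 0.0995 over all alternatives). OCLN, the only one with at least 5 CPM in Kelly or parental, was at 11.2 and 8.98 CPM.

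Unlike VIM, most genes in the list of other intermediate filaments and their linkers were called, with 4 higher and 4 lower of 10 tested (edgeR, median 0.03). Leaving out any 1 library lowered the number higher, to 2 without LMO1 replicate 2 and to 3 otherwise. The number lower was 3 without LMO1 replicate 2 and 4 otherwise. The neurofilaments NEFL and NEFM rose by 0.54 (SE 0.0271) and 0.45 (SE 0.0435), and PRPH, peripherin, fell by 0.36 (SE 0.0346). PLEC, a linker of filaments, fell by 0.22 (SE 0.0388). In Kelly, where VIM was low, NEFL (63.7 against 566 CPM) and NEFM (64.6 against 434 CPM) were low as well, and NEFH was at 173 against 1.26 CPM.

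Other surface and matrix genes of the mesenchymal state were higher in 8 and lower in 2 of 15 tested, with a median log2 fold change of 0.26 beside 0.000832 over all genes. S100A6 rose by 0.97 (SE 0.029, edgeR adjusted p = 2.13e-30), NT5E, also a YAP target, rose by 1.11, and LUM, lumican, rose by 1.06 (SE 0.125), while FN1, fibronectin, fell by 1.24 (SE 0.0526). Without LMO1 replicate 1 or vector replicate 2, 1 was lower. In Kelly 9 of 13 such genes with at least 5 CPM were 2-fold below parental and 1 was above, against 13.4% lower and 15.3% higher among 12387 genes. The median log2 ratio of the 13 was -2.47. S100A6 (0.269 against 337 CPM) and S100A4 (1.58 against 67.5 CPM) were among those below parental. Fibroblast and endothelial markers, fixed as signs of other cells, summed to 110 CPM in each LMO1 library, 103 and 111 CPM in the vector libraries, 193 CPM in parental and 170 CPM in Kelly. These sums held opposite moves: of the 10 markers 8 were tested, with 3 higher (DCN, LUM and VWF) and 2 lower (COL3A1 and CDH5) with LMO1. DCN, decorin, rose by 0.84 (SE 0.0897), from 19.9 ± 1.45 to 35.5 ± 2.12 CPM, and was at 102 CPM in parental and 0.201 CPM in Kelly. LUM, on both lists, was at 18.2 and 21.1 CPM in the LMO1 libraries and 8.80 and 10.1 CPM in the vector libraries. Parental had 20.1 CPM of LUM, a level within the LMO1 range. COL3A1, a fibrillar collagen, fell by 1.80 (SE 0.122), from 25.2 ± 0.969 to 7.22 ± 0.749 CPM. Its parental level of 9.67 CPM was nearer to LMO1 than to vector. The endothelial genes were low, with VWF at 1.64 ± 0.103 against 0.502 ± 0.257 CPM (edgeR adjusted p = 0.00353, and 0.00190 to 0.0905 over the alternatives, with the call lost without vector replicate 1 or LMO1 replicate 2) and CDH5 at 0.259 ± 0.0698 against 1.35 ± 0.361 CPM. PDGFRB, at 42.8 to 98.8 CPM over the 6 libraries, PDGFRA and COL1A1 were not called, and COL1A1 reached 57.9 CPM in Kelly. COL1A2 had at most 2 counts and PECAM1 at most 1 in any library. The 6 Schwann and glial markers summed to 5.13 to 7.44 CPM over the 6 libraries, and their part in the results was not tested.

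On the adrenergic side, 4 genes were higher and 6 lower of 12 tested (edgeR, median -0.10). DBH, which makes noradrenaline, rose by 2.57 (SE 0.0803), and TFAP2B by 0.48 (SE 0.0574). TBX2, a T-box factor, fell by 0.70 (SE 0.0343). In Kelly, TH was at 405 against 3.08 CPM in parental and DBH at 873 against 35.4 CPM. Kelly thus combined the lowest AXL, SNAI2, VIM and WWTR1 of the 6 libraries with the highest TH and DBH, as values of 1 library.

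**Figure D4:**
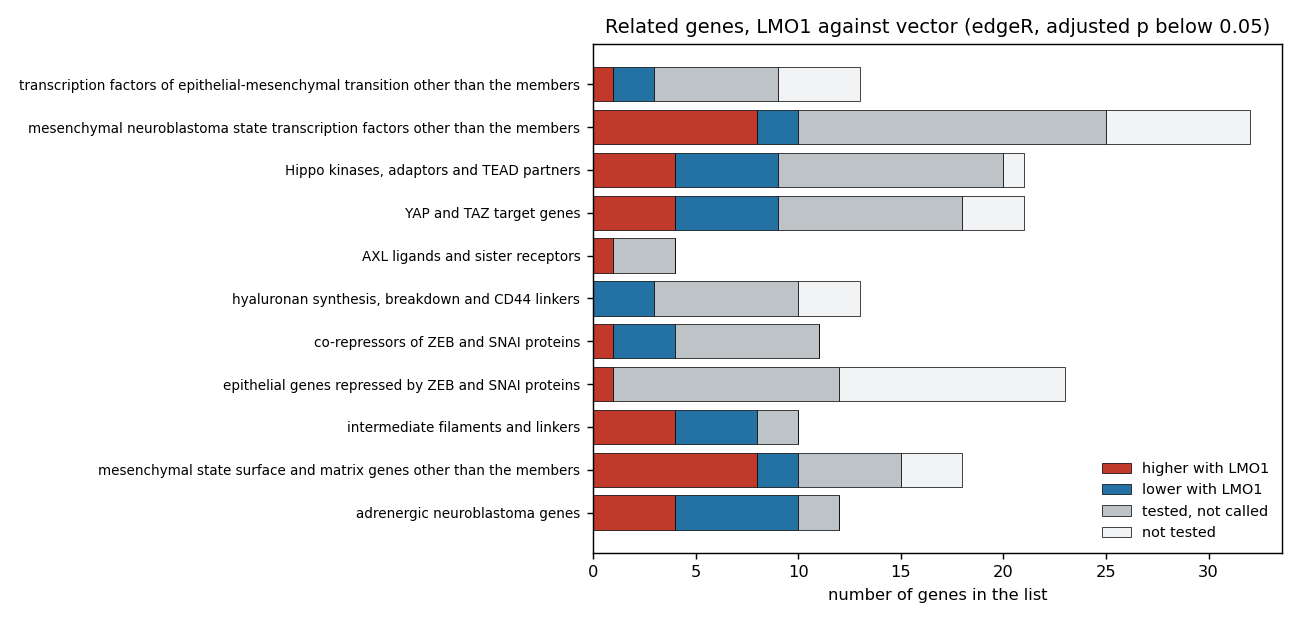
Number of genes in each of 11 related lists called higher, called lower, tested but not called, or not tested, for LMO1 against vector (edgeR, adjusted p below 0.05). Called genes fall on both sides in most lists, with 8 higher and 2 lower for the surface and matrix genes and for the mesenchymal transcription factors.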

How the data were processed

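Per the labels' protocols, column-purified total RNA was made into paired-end stranded total RNA libraries and sequenced on a HiSeq instrument. The authors deposited raw counts of reads per gene symbol, whole numbers with no normalization. Per the submitters' processing notes the tools were TopHat2 2.0.6 and HTSeq and the build was hg19, while the annotation and strand setting are not given in the sources used here. In GENCODE 29, antisense genes overlap exons of 6 of the 10 members, so their reads may be mixed.

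LMO1 and vector counts were compared with edgeR 4.0.16 (R 4.3.3): filterByExpr kept 15480 genes, TMM scaling, quasi-likelihood F test, Benjamini-Hochberg adjustment. DESeq2 1.42.0 and limma 3.58.1 gave alternatives. No label says that replicates were separate cultures, and the p-values then reflect only variation among these libraries, which may be technical. Single libraries were compared without a test, with exact counting intervals; reads carried no molecular identifiers. The members and lists were chosen with earlier results of these data known. The members, from each list the 4 called genes at most with the smallest adjusted p, and up to 3 with the largest Kelly to parental ratio were named; others named (TCF3, SNAI1, TWIST2, CTGF, CYR61, CDH1, MERTK, HYAL1, HMMR, LATS1, LATS2 and the fibroblast and endothelial markers) were chosen after their values were seen. Some genes the rule names are not reported here.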

Additional observations from a re-analysis of the deposited data

How the results depend on the processing

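CD44 was called higher and AXL and ZEB2 lower under all 12 alternatives. Leaving out 1 library gave 1772 to 1914 genes called higher and 1670 to 1745 lower, with 1 member higher and 2 lower each time. Signs turned for members that were never called. VIM had log2 fold changes of -0.001939 with DESeq2 size factors, -0.004069 without a low-count filter, -0.005032 with DESeq2 and -0.004685 when the fit held all 6 libraries, and ran from -0.01201 to 0.008853 when 1 library was left out. SNAI2 ran from -0.04839 to 0.104 and ZEB1 from -0.09024 to 0.001432. The labels number the libraries 1 and 2 in both groups, and deviations of same-numbered libraries had a correlation of -0.0209; with the replicate block, 2473 genes were higher and 2374 lower, and no member changed its call. For Kelly against parental, the limit of 1 CPM on either side gave 1 member 2-fold higher (PRRX1). For parental against vector, adding 0.25 CPM or using the limit of 1 CPM each gave 1 member 2-fold higher (CD44 and YAP1). YAP1, WWTR1 and PRRX1 are limited by low counts in the modified BE2C libraries, with at most 17 counts in any of them. Counts in the related lists moved more: DESeq2 called 3 mesenchymal transcription factors and 2 Hippo genes higher, against 8 and 4 with edgeR, and the stricter low-count filter, which tested fewer genes, left 5 of those factors higher and 3 YAP and TAZ targets lower. DESeq2 and total-count scaling each gave 1 gene lower in place of 2 among the surface and matrix genes and the factors of epithelial-mesenchymal transition. Leaving out 1 library removed the only epithelial call (LMO1 replicate 2 or vector replicate 2). DESeq2 called 1749 genes higher and 1795 lower, and total-count scaling 2735 and 1853.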

Other observations

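The genes whose pattern over the 6 libraries was closest to that of a member were found by the distance between centred log2(CPM + 1) values among 12816 other genes with at least 5 CPM in some library. For CD44 these were SLC35F2 (distance 0.0715), ABCG1 (0.221) and ZNF641 (0.291). For AXL they were TRIM38 (0.261), ENC1 (0.275) and FZD1 (0.386), for SNAI2 MAN1A1 (0.193), PCDHA10 (0.225) and ARHGAP4 (0.261), and for VIM VANGL1 (0.184), ZDHHC2 (0.202) and EFNA2 (0.212). TWIST1 was closest to HSD17B11 (0.0897), METTL15 (0.106) and SUCLA2 (0.109), ZEB1 to ERLIN2 (0.0570), THOC7 (0.0690) and WDR36 (0.0710), and ZEB2 to MBD1 (0.0569), ADAM19 (0.0801) and TMEM68 (0.0924). The libraries fall into 4 groups and share their scaling, so these distances are descriptions.

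Antisense and divergent genes of the members had rows of their own. ZEB1-AS1, a divergent neighbour of ZEB1, was at 12.1 and 12.1 CPM with LMO1, 10.4 and 9.14 CPM with vector, 16.2 CPM in parental and 19.5 CPM in Kelly. VIM-AS1 was at 0.995 and 2.25 CPM with LMO1, 1.51 and 1.21 CPM with vector, 2.47 CPM in parental and 0.654 CPM in Kelly. ZEB2-AS1 had at most 3 counts in any library and WWTR1-AS1 at most 4.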
